A study of Mus musculus with 16 samples.

Results

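The genes described here are 10 genes by which mouse neutrophils are recognised: Retnlg, Cd177, Ly6g, Trem1, Trem3, Clec4d, Clec4e, Ngp, Mpo and Elane. They were taken by gene symbol from a table of read counts for 26357 genes, and all 10 were in it. The study's title concerns psoriasiform dermatitis driven by murine IL-23, the cytokine that sustains type 17 lymphocytes, and its use in drug discovery. The 16 mouse RNA libraries fall into 4 groups of 4: mice given IL-23 and a drug vehicle per os, mice given the agent's vehicle and a drug vehicle per os, mice given IL-23 and a drug vehicle by the intraperitoneal route, and mice given the agent's vehicle and a drug vehicle by the intraperitoneal route. The drug vehicle held 0 mpk of compound in every group, so no group received a test compound. Per os dosing is called oral here. The labels used here name no strain, sex, age, tissue or harvest day, and do not say how the IL-23 was given. Libraries are named by the number that opens their label. Nothing in the labels says how many animals stand behind a sample, so the p-values below measure the spread between these samples, and n counts libraries.

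Neutrophils mature in the bone marrow in stages, and each stage packs its own granule proteins. Primary (azurophil) granules are filled in promyelocytes with Mpo and Elane products, secondary granules in myelocytes with Ngp and lactoferrin, and tertiary granules later still. The transcripts of the early granule proteins are largely shut off before the cell enters the blood, whereas receptors for chemokines, formyl peptides, microbial sugars and dying cells are expressed in circulating and tissue neutrophils. Of the genes here, Retnlg (a resistin-like secreted protein), Cd177 and Ly6g (surface glycoproteins anchored by GPI) mark mature mouse neutrophils. Trem1 and Trem3 encode activating receptors that signal through the adaptor Tyrobp. Clec4d and Clec4e encode the C-type lectins MCL and Mincle, which signal through Fcer1g and are also expressed by activated macrophages and monocytes.

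The sequences below are the 250 bases upstream of the start that the RefSeq promoter table uses, for genes that were called higher in IL-23 mice in both dosing routes. They are shown because these genes moved together, and 5 of the 6 have an entry in that table (build GRCm38.p6). For Cd177 and Trem1 the table's start lies inside the gene span given with their values, so part of the window overlaps that span. Trem3 is named only. Each is read 5′ to 3′ on the gene's own strand, and capitals mark matches, on either strand, to the motifs named after them.
Retnlg, chr16:48872358-48872607, plus strand: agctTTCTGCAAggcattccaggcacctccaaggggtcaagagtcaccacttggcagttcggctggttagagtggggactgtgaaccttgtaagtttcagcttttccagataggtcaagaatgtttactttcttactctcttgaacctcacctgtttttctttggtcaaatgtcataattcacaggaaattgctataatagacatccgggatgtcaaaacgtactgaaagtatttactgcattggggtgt
Cd177, chr7:24760312-24760561, minus strand: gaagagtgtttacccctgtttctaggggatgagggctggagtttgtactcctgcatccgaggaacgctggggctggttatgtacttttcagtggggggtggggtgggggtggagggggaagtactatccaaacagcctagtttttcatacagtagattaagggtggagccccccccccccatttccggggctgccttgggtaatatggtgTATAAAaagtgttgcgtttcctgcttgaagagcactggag
Trem1, chr17:48232489-48232738, plus strand: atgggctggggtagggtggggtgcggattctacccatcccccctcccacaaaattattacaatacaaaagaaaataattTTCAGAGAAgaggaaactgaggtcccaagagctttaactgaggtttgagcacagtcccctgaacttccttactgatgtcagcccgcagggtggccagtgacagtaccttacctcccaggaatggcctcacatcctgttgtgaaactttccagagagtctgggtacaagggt
Clec4d, chr6:123261857-123262106, plus strand: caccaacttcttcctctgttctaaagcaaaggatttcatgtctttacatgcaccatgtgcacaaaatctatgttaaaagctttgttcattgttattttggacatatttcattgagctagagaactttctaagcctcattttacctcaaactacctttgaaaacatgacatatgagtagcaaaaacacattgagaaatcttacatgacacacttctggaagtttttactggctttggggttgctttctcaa
Clec4e, chr6:123289872-123290121, minus strand: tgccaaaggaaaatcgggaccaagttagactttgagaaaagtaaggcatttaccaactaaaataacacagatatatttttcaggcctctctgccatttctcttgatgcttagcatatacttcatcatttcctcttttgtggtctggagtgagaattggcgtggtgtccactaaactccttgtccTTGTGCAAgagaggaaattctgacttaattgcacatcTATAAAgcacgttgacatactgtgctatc

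The motifs searched were a C/EBP site (TTGCNNAA, in 9.56% of 32851 promoter windows of the same length), a PU.1 site (GAGGAAGT, 2.44%), a STAT site (TTCNNNGAA, 7.02%), and a TATA box (TATAAA, 12.4%). Both strands were read. The C/EBP pattern was found in Retnlg (TTCTGCAA, bases -246 to -239 from the table's start) and in Clec4e (TTGTGCAA, bases -66 to -59), both on the strand opposite the gene. The STAT pattern was found in Trem1 (TTCAGAGAA, bases -171 to -163), and TATAAA in Cd177 (bases -40 to -35) and Clec4e (bases -29 to -24). No pattern was found in the Clec4d window, and the PU.1 pattern in none of the 5 windows. A match describes these letters and is not a measured binding site.

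Total counts were 6381990 to 10078531 in the 8 IL-23 libraries and 7159325 to 14432930 in the 8 vehicle libraries. Levels are CPM, counts scaled to library size with TMM factors. Oral IL-23 library 26 and intraperitoneal IL-23 library 28 stood apart within their groups for several of the genes. A value that moved by over 1.5 times, or a call that was lost, when either was left out is given with and without it. Summed keratinocyte markers (7 genes) were 35510 to 66547 CPM in IL-23 and 19733 to 27693 CPM in vehicle libraries, with library 28 the lowest of the IL-23 libraries, so transcripts of epidermis were abundant in all 16. In such bulk RNA, more cells of a type and more RNA per cell cannot be told apart.

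Retnlg, Cd177, Trem1, Trem3, Clec4d and Clec4e were higher in IL-23 than in vehicle mice in both routes. Ly6g was found at 0 to 4 counts per library and did not pass the test in the oral mice, and the primary granule genes Mpo and Elane held 0 to 10 counts per library in all groups. These 6 genes passed the filter on low counts, and each was called higher, at an adjusted p below 0.05, in the oral and in the intraperitoneal mice (edgeR's quasi-likelihood test, Benjamini-Hochberg over 14671 genes). Of all genes tested, 63.3% were called in either direction in the oral mice, 29.2% higher and 34% lower. In the intraperitoneal mice 61.7% were called, 30.8% higher and 30.9% lower, and 25.9% were called higher in both routes. For each of the 6 genes, IL-23 libraries were all above the vehicle libraries of their route, as was the case for 27.9% of genes tested in the oral and 25.2% in the intraperitoneal mice. A called log2 fold change of at least 2 was rarer, at 2.64% of genes in the oral and 2.54% in the intraperitoneal mice. Trem1, Clec4d and Clec4e, which would have passed the filter on the vehicle libraries alone, had that size in each route. Retnlg, Cd177 and Trem3 had it too, but passed the filter only through their IL-23 libraries. A count over the 6 is therefore not used as support. Ly6g, Ngp, Mpo and Elane did not pass the filter. They were tested in a second fit that kept every gene with at least 1 count (20799 genes). There 44.5% of genes were called in either direction in the oral mice, 21.5% higher, and 44.1% in the intraperitoneal mice, 22.6% higher.

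**Figure D1:**
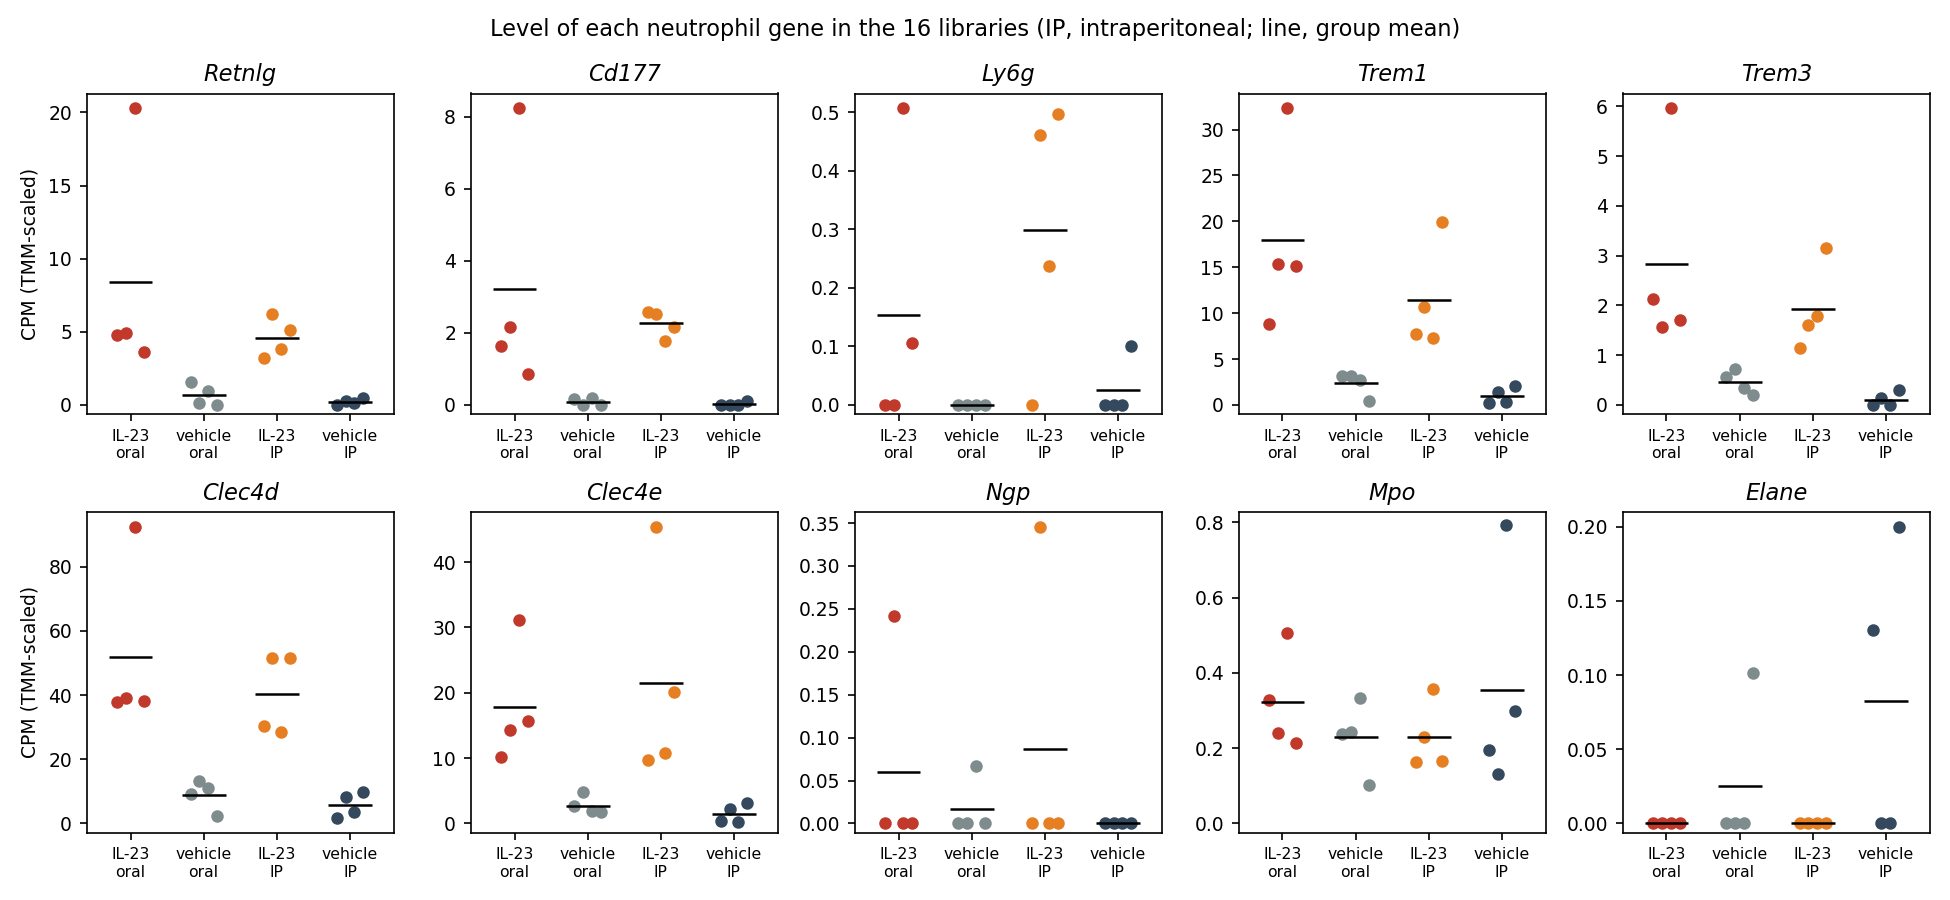
CPM of each of the 10 genes in each library (points), by group, with the group mean as a line. Points of Retnlg, Cd177, Trem1, Trem3, Clec4d and Clec4e in IL-23 libraries lie above all vehicle points of the same route, with oral library 26 highest for 5 of them and intraperitoneal library 28 highest for Clec4e.

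Retnlg (ID 245195, chromosome 16, 48872608 to 48874498) had 4.76, 4.95, 20.3 and 3.61 CPM in oral IL-23 libraries 14, 24, 26 and 68, against 1.59, 0.122, 0.932 and 0 CPM in oral vehicle libraries 4, 27, 33 and 51. It had 3.24, 6.22, 3.80 and 5.14 CPM in intraperitoneal IL-23 libraries 25, 28, 31 and 61, against 0, 0.264, 0.159 and 0.500 CPM in intraperitoneal vehicle libraries 49, 50, 59 and 67. Every IL-23 library was above every vehicle library, and library 26 was about 4 times as high as the other oral IL-23 libraries. The log2 fold change was 3.50 ± 0.69 (SE) in the oral mice (adjusted p = 0.000308, edgeR's quasi-likelihood test) and 4.43 ± 0.88 in the intraperitoneal mice (adjusted p = 0.000367). Without library 26 the oral value was 2.58 (adjusted p = 0.00191), and without oral vehicle library 4, the highest of its group, it was 4.26. Without intraperitoneal vehicle library 67 the intraperitoneal value was 5.18.

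Cd177 (ID 68891, chromosome 7, 24743983 to 24760334), the neutrophil surface glycoprotein also known as NB1, was nearly undetected in vehicle mice. It had 1.64, 2.17, 8.24 and 0.850 CPM in oral IL-23 libraries 14, 24, 26 and 68, against 0.159, 0, 0.200 and 0 CPM in oral vehicle libraries 4, 27, 33 and 51. It had 2.59, 2.53, 1.78 and 2.15 CPM in intraperitoneal IL-23 libraries 25, 28, 31 and 61, against 1 count (0.0999 CPM) in vehicle library 67 and 0 in libraries 49, 50 and 59. The groups did not overlap in either route, and the intraperitoneal IL-23 libraries lay close together while library 26 stood above the other oral ones. Pooled over a group, 101 counts against 5 gave a ratio of 29.1 in the oral mice (95% exact interval 12.1 to 91.7, counting error only), which was 13.8 without library 26 and 48.9 without oral vehicle library 33. In the intraperitoneal mice 66 counts against 1 gave a ratio of 103 (17.8 to 4109), or 68.0 without vehicle library 49. Without library 67 the vehicle group held 0 counts, and the IL-23 level was 26.7 times a floor of 3 counts over that group. The fitted log2 fold changes, 4.74 ± 0.78 oral (adjusted p = 6.02e-05, edgeR's quasi-likelihood test) and 6.01 ± 1.03 intraperitoneal (adjusted p = 9.49e-05), depend on the prior count where vehicle libraries are at 0. The oral value was 3.68 without library 26 and 5.37 without oral vehicle library 33, and the intraperitoneal one was 7.43 without library 67 and 5.26 with limma-voom.

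Ly6g (ID 546644, chromosome 15, 75155261 to 75159128), the antigen recognised by the antibody used to identify or deplete mouse neutrophils, was detected at very few counts. The oral IL-23 libraries 14, 24, 26 and 68 held 0, 0, 4 and 1 counts, and the oral vehicle libraries held 0. The intraperitoneal IL-23 libraries 25, 28, 31 and 61 held 0, 4, 2 and 3 counts, against 1 count in vehicle library 67 and 0 in the other three. Counts were thus found in 5 of 8 IL-23 libraries and 1 of 8 vehicle libraries, and the groups overlapped at 0. The oral IL-23 level was 2.40 times a floor of 3 counts over the vehicle group. That value leaves out the counting error of the IL-23 counts, so it is no lower bound. It rested on library 26, without which only 1 count remained and no fold can be given. The oral difference did not pass the test (adjusted p = 0.0552 in the unfiltered edgeR fit). In the intraperitoneal mice 9 counts against 1 gave a ratio of 14.0 (95% exact interval 1.94 to 613), or 9.27 without vehicle library 49. Without vehicle library 67 the IL-23 level was 3.63 times a floor of 3 counts over the vehicle group. Its adjusted p of 0.0436 in the unfiltered edgeR fit ran from 0.0127 to 0.112 over the alternative settings, and the call was lost under several of them. Ly6 genes are similar in sequence and how multi-mapping reads were counted is not given in the sources used here, so these few counts are uncertain.

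The neighbouring receptor genes Trem1 and Trem3 were both higher in IL-23 mice. Trem1 (ID 58217, chromosome 17, 48232713 to 48246927), which amplifies inflammatory signalling in neutrophils and monocytes, had 8.86, 15.3, 32.3 and 15.2 CPM in oral IL-23 libraries 14, 24, 26 and 68, against 3.18, 3.16, 2.73 and 0.405 CPM in oral vehicle libraries 4, 27, 33 and 51. It had 7.78, 10.7, 7.24 and 19.9 CPM in intraperitoneal IL-23 libraries 25, 28, 31 and 61, against 0.196, 1.45, 0.317 and 2.10 CPM in vehicle libraries 49, 50, 59 and 67. No IL-23 library fell within the vehicle range, and vehicle library 51 was far below the other oral vehicle libraries. The log2 fold change was 2.90 ± 0.55 (SE) oral (adjusted p = 0.000215, edgeR's quasi-likelihood test) and 3.62 ± 0.63 intraperitoneal (adjusted p = 0.000121). The intraperitoneal value was 4.37 without vehicle library 67.

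Trem3 (ID 58218, chromosome 17, 48247677 to 48258848), a functional receptor gene in mice, starts 749 bases beyond the end of Trem1. It had 2.13, 1.57, 5.96 and 1.70 CPM in oral IL-23 libraries 14, 24, 26 and 68, against 0.556, 0.730, 0.333 and 0.203 CPM in oral vehicle libraries 4, 27, 33 and 51. It had 1.13, 1.61, 1.78 and 3.15 CPM in intraperitoneal IL-23 libraries 25, 28, 31 and 61, against 0, 0.132, 0 and 0.300 CPM in vehicle libraries 49, 50, 59 and 67. The groups did not overlap, with library 26 again high among the oral IL-23 libraries. The log2 fold change was 2.64 ± 0.56 oral (adjusted p = 0.000631, edgeR's quasi-likelihood test), or 1.98 without library 26, and 4.22 ± 0.77 intraperitoneal (adjusted p = 0.000182), or 5.52 without vehicle library 67. Trem3 made up 9.29% to 19.7% of the counts of the pair in IL-23 libraries.

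Clec4d and Clec4e lie 6520 bases apart on chromosome 6 and encode lectins that form a complex and bind mycobacterial and other microbial glycolipids. Clec4d (ID 17474, chromosome 6, 123262107 to 123275268) had 37.7, 38.97, 92.5 and 38.2 CPM in oral IL-23 libraries 14, 24, 26 and 68, against 9.29, 13.3, 11.1 and 2.23 CPM in oral vehicle libraries 4, 27, 33 and 51. It had 30.3, 51.5, 28.6 and 51.5 CPM in intraperitoneal IL-23 libraries 25, 28, 31 and 61, against 1.57, 8.30, 3.41 and 9.79 CPM in vehicle libraries 49, 50, 59 and 67. The groups did not overlap, and the oral IL-23 libraries other than 26 were almost equal. The log2 fold change was 2.53 ± 0.48 (SE) oral (adjusted p = 0.000205, edgeR's quasi-likelihood test) and 2.90 ± 0.51 intraperitoneal (adjusted p = 0.00012).

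Clec4e (ID 56619, chromosome 6, 123281789 to 123289871), which also senses a nuclear protein released by dying cells, had 10.2, 14.2, 31.2 and 15.6 CPM in oral IL-23 libraries 14, 24, 26 and 68, against 2.62, 4.75, 1.86 and 1.72 CPM in oral vehicle libraries 4, 27, 33 and 51. It had 9.72, 45.4, 10.8 and 20.04 CPM in intraperitoneal IL-23 libraries 25, 28, 31 and 61, against 0.392, 2.24, 0.238 and 3.20 CPM in vehicle libraries 49, 50, 59 and 67. The groups did not overlap, and library 28 rather than 26 was the highest, unlike the other 5 called genes. The log2 fold change was 2.75 ± 0.60 oral (adjusted p = 0.000774, edgeR's quasi-likelihood test) and 3.97 ± 0.66 intraperitoneal (adjusted p = 6.87e-05). The intraperitoneal value was 3.32 without library 28 and 4.77 without vehicle library 67.

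**Figure D2:**
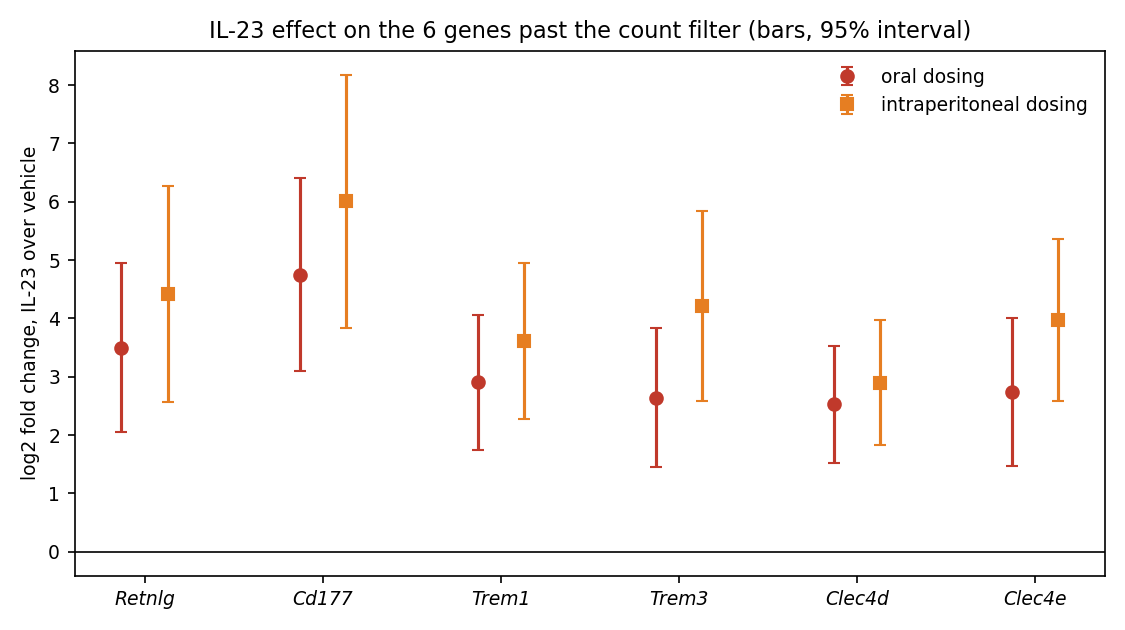
Fitted log2 fold change (IL-23 over vehicle) of the 6 genes past the count filter in each dosing route, with the 95% confidence interval as a bar. Every interval lies above 0, from Clec4d at 2.53 in the oral mice to Cd177 at 6.01 in the intraperitoneal mice, and the oral and intraperitoneal intervals of each gene overlap.

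Among the IL-23 libraries, the balance of the lectin pair differed in library 28. Clec4e made up 46.8% of the summed Clec4e and Clec4d counts in library 28 (95% exact interval 43.4 to 50.3), whereas the share was 21.2% to 29.0% in the remaining 7 libraries of IL-23 mice. The share varied more among vehicle libraries, from 6.52% to 43.6%, the highest resting on 39 counts in library 51 (interval 27.8 to 60.4). Vehicle libraries 59 (6.52%, interval 1.37 to 17.9) and 33 (14.4%, 9.81 to 20.2) lay below all IL-23 libraries. Library 28 also held the highest summed level of 13 macrophage and monocyte markers, 1466 CPM, where the remaining IL-23 libraries had 479 to 735 CPM, with 279 to 448 CPM in vehicle mice. Library 26, the highest for Retnlg, Cd177, Trem1, Trem3 and Clec4d, had 724 CPM of these markers, within that range. Of the 12 macrophage and monocyte markers tested, 5 rose, 1 fell and 6 did not pass in the oral mice (median log2 fold change 0.80), and 8 rose, 1 fell and 3 did not pass in the intraperitoneal mice (median 1.06). Without library 28, 6 rose, 1 fell and 5 did not pass in the intraperitoneal mice (median 0.48), and without library 26, 4 rose, 1 fell and 7 did not pass in the oral mice (median 0.69). Over all genes tested, 29.2% were called higher in the oral and 30.8% in the intraperitoneal mice, and the median was -0.06 and -0.02. Mrc1, the mannose receptor, rose by 1.44 and 1.59, and Mertk, a receptor for dying cells, fell by 2.06 and by 1.65 (oral and intraperitoneal, log2). Ccr2, the monocyte chemokine receptor, rose by 1.37 oral and 1.74 intraperitoneal, with 93.7 ± 81.2 CPM in intraperitoneal IL-23 and 28.3 ± 5.41 CPM in intraperitoneal vehicle mice (SD, n = 4 each), and by 0.94 intraperitoneal without library 28. The part of macrophages and monocytes in the Clec4d, Clec4e and Trem1 values was not tested.

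**Figure D3:**
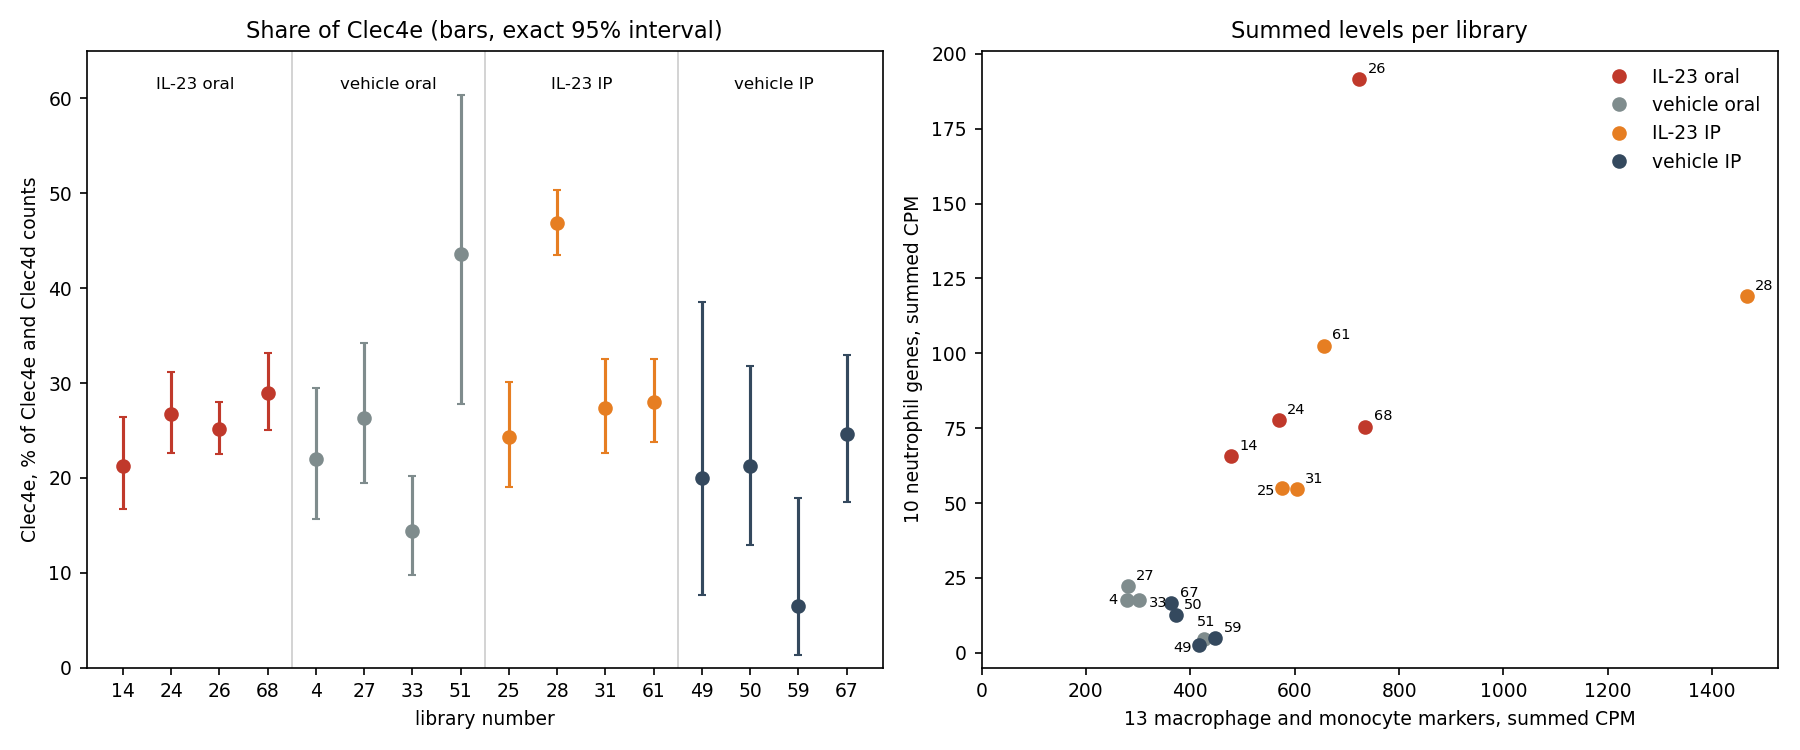
Left, Clec4e as a percentage of the Clec4e and Clec4d counts in each library, with the exact 95% interval. Right, summed CPM of the 10 neutrophil genes against summed CPM of 13 macrophage and monocyte markers, each point a library. Library 26 has the highest sum of the 10 genes (192 CPM) and library 28 the highest macrophage and monocyte sum (1466 CPM). In IL-23 libraries Clec4d, Clec4e and Trem1, which macrophages or monocytes also express, held 49.5%, 21.7% and 15.8% of the counts of the 10 genes.

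The granule genes Mpo, Elane and Ngp were found at 0 to 10 counts per library, and none of them passed the test in either route. Mpo (ID 17523, chromosome 11, 87793784 to 87804412), myeloperoxidase of primary granules, had 2, 2, 4 and 2 counts in oral IL-23 libraries 14, 24, 26 and 68, against 3, 2, 5 and 1 in oral vehicle libraries 4, 27, 33 and 51. It had 1, 2, 3 and 1 counts in intraperitoneal IL-23 libraries 25, 28, 31 and 61, against 3, 1, 10 and 3 in vehicle libraries 49, 50, 59 and 67. Every library held at least 1 count and the groups overlapped throughout, with vehicle library 59 above the rest. Pooled over the routes, the ratio of IL-23 to vehicle was 0.908 (95% exact interval 0.466 to 1.72), which covers counting error only. The log2 fold change was 0.43 ± 0.65 (SE) oral (adjusted p = 0.625) and -0.59 ± 0.65 intraperitoneal (adjusted p = 0.488) in the unfiltered edgeR fit.

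Elane (ID 50701, chromosome 10, 79886312 to 79888216), neutrophil elastase of primary granules, had 0 counts in all 8 IL-23 libraries. A count of 0 over these allows a level of up to 0.0492 CPM. In vehicle mice 5 counts were found, 1 in oral library 51 and 2 each in intraperitoneal libraries 49 and 67. Neither route passed the test (adjusted p = 0.483 oral and 0.178 intraperitoneal, unfiltered edgeR fit), so a difference was not detectable at this depth.

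Ngp (ID 18054, chromosome 9, 110419808 to 110423012), neutrophilic granule protein of secondary granules, had 2 counts in oral IL-23 library 24, 3 in intraperitoneal IL-23 library 28 and 1 in oral vehicle library 33. The other 13 libraries held 0. The oral ratio was 2.88 (95% exact interval 0.150 to 170) and no fold is given for the intraperitoneal mice, where both groups lay at or under the floor of 3 counts. Neither route passed the test (adjusted p = 0.567 oral and 0.122 intraperitoneal, unfiltered edgeR fit). Each IL-23 count came from 1 library per route, so nothing can be read about the spread between samples.

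Levels can be compared between genes per length of exon, as RPKM, read counts scaled by exon length and library size. In the 8 IL-23 libraries Clec4d averaged 34.9 ± 15.5 RPKM (SD), Retnlg 10.96 ± 9.53, Clec4e 7.80 ± 4.997, Trem1 4.89 ± 2.80, Trem3 2.39 ± 1.57 and Cd177 1.01 ± 0.84 RPKM. Below them came Ly6g at 0.240, Mpo at 0.0948, Ngp at 0.0600 and Elane at 0 RPKM. Clec4d was above Retnlg in 8 of 8 libraries, although their ranges overlapped, with library 26 high for both. Retnlg was above Clec4e in 6 of 8, while Clec4e over Trem1, Trem1 over Trem3, Trem3 over Cd177 and Cd177 over Ly6g held in 8 of 8. Ly6g over Mpo held in 5 of 8 and Mpo over Ngp in 6 of 8, so the order of the lowest genes is not settled by their spread. In the 8 vehicle libraries Clec4d also led, at 5.57 ± 3.31 RPKM, and was above Clec4e, the next at 0.845 RPKM, in 8 of 8. Lowest there were Mpo at 0.101, Elane at 0.0548, Cd177 at 0.0211, Ly6g at 0.0133 and Ngp at 0.00681 RPKM on average. Mpo over Elane held in 5 of 8, Elane over Cd177 in 3 of 8, Cd177 over Ly6g in 2 of 8 and Ly6g over Ngp in 1 of 8. The order of these genes is thus not settled by their spread either.

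Other genes of the neutrophil lineage were read from lists ordered by the stage or role they are known from. Each count of a list's genes is to be read against the 29.2% of all genes tested that were called higher in the oral and the 30.8% in the intraperitoneal mice. The lists were chosen with earlier results of these data known, so a count above these shares is a description and not a test. All 8 further primary granule and promyelocyte genes lay under the filter and none was tested. Their summed level was 0.324 to 3.69 CPM in IL-23 and 1.19 to 3.14 CPM in vehicle libraries, which overlapped. Among them, named after their values were seen, the protease gene Ctsg had 24 counts in IL-23 and 109 in vehicle libraries, Prtn3 (proteinase 3) had 17 and 19, Cebpe, a factor of granulocyte differentiation, had 9 and 0, and Ms4a3 and Bpi had 0 in both.

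Of 8 secondary granule genes 6 were tested, and 5 rose, none fell and 1 did not pass in each route, with a median log2 fold change of 1.67 oral and 1.32 intraperitoneal. Without library 26 the oral count was 4 (median 1.44), and without library 28 the intraperitoneal count was 4 (median 0.98). Lcn2 (lipocalin 2, also made by keratinocytes) averaged 204 ± 50.8 CPM in oral IL-23 and 4.70 ± 0.97 CPM in oral vehicle mice (SD, n = 4 each), and 217 ± 45.0 CPM in intraperitoneal IL-23 and 4.49 ± 1.31 CPM in intraperitoneal vehicle mice. Its log2 fold change was 5.42 ± 0.23 and 5.64 ± 0.24 (SE). Chil3, a chitinase-like protein that macrophages also make, rose by 2.91 oral and 3.60 intraperitoneal. It had 18.8 ± 28.5 CPM in intraperitoneal IL-23 and 1.65 ± 0.76 CPM in intraperitoneal vehicle mice (SD, n = 4 each), and rose by 1.61 there without library 28 (adjusted p = 0.00228, edgeR's quasi-likelihood test). Cebpd, a transcription factor with wide expression, rose by 1.92 and 1.48. The remaining genes of that list were under the filter and not tested. Camp (cathelicidin) had 10 counts in IL-23 and 48 in vehicle libraries and Ltf (lactoferrin) had 20 in each, both named after their values were seen. Which cells these counts came from was not tested.

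Of 8 tertiary granule and late genes, 6 rose, none fell and 2 did not pass in the oral mice (median 1.45), and 7 rose, none fell and 1 did not pass in the intraperitoneal mice (median 1.60). Without library 26, 5 rose in the oral mice (median 1.14), and without library 28, 6 rose in the intraperitoneal mice (median 1.14). Mxd1, a MYC antagonist of terminal differentiation, rose by 1.94 and 1.37, Adam8, a leukocyte metalloprotease, by 1.91 and 1.56, and Itgam, the integrin CD11b, by 1.84 and 1.83, or 1.02 intraperitoneal without library 28. In vehicle mice Mxd1 averaged 46.5 ± 4.97 CPM oral and 68.0 ± 13.2 CPM intraperitoneal, and Adam8 31.2 ± 5.57 and 34.7 ± 10.1 CPM (SD). Which cells this RNA came from was not tested. Mmp8 and Mmp9 were named after their values were seen. Mmp8 did not pass (1.36 and 1.28), but did oral without library 68 and intraperitoneal without library 25. Mmp9 rose by 1.24 and 1.74, its oral call lost without IL-23 library 26 or 68 or vehicle library 27 or 51. Of 14 receptor genes of blood neutrophils, 13 rose, none fell and 1 did not pass in each route (medians 2.18 and 2.27), with 11 in the oral mice without library 26 (median 1.57) and 13 in the intraperitoneal mice without library 28 (median 1.81). Cxcr2, the receptor for neutrophil-attracting chemokines, averaged 21.4 ± 6.81 CPM in oral IL-23 and 1.02 ± 0.72 CPM in oral vehicle mice, and 23.6 ± 5.57 CPM in intraperitoneal IL-23 and 1.47 ± 0.87 CPM in intraperitoneal vehicle mice (SD, n = 4 each). The formyl peptide receptor Fpr2 rose by 3.50 oral, or 4.12 without vehicle library 4, and by 4.08 intraperitoneal, or 3.45 without library 28 and 4.71 without vehicle library 67. The Fc receptor Fcgr4, which monocytes also carry, rose by 2.21 oral, a call lost without library 26 (1.41, adjusted p = 0.139) or vehicle library 4 (1.91, adjusted p = 0.0598, edgeR's quasi-likelihood test). It rose by 4.91 intraperitoneal, with 13.6 ± 17.5 CPM in IL-23 and 0.473 ± 0.249 CPM in vehicle mice (SD, n = 4 each), and by 3.42 without library 28. The decoy receptor gene Il1r2 did not pass, with 108 ± 39.8 CPM in oral IL-23 and 93.7 ± 7.15 CPM in oral vehicle mice.

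**Figure D4:**
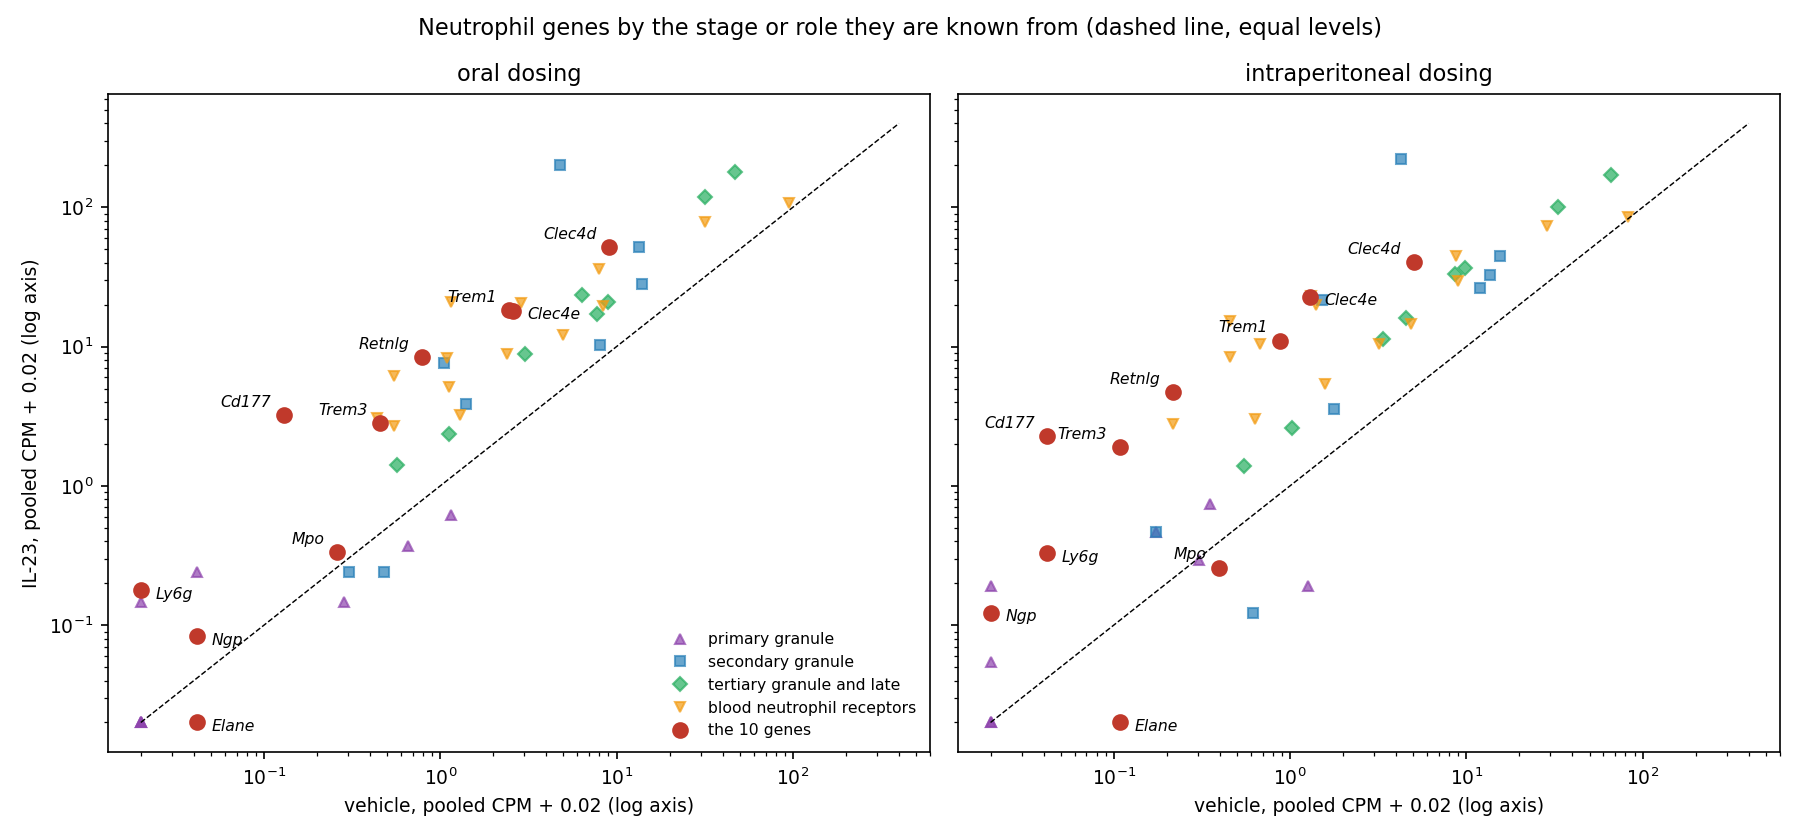
Pooled CPM of neutrophil genes in IL-23 (vertical) and vehicle (horizontal) mice, on log axes with 0.02 added to each level, in the oral (left) and intraperitoneal (right) mice. The 6 called genes lie above the line of equal levels in both panels, while Mpo lies near it and Elane below it, with 0 counts in IL-23 mice.

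A list of signalling partners of these receptors and of related TREM and C-type lectin receptors held 17 genes, of which 15 were tested. Among these 11 rose, none fell and 4 did not pass in the oral mice (median 1.23), and 12 rose, none fell and 3 did not pass in the intraperitoneal mice (median 1.39). Without library 26, 10 rose in the oral mice (median 0.96), and without library 28, 11 rose in the intraperitoneal mice (median 1.01). Clec7a (Dectin-1, a receptor for fungal glucan) rose by 3.66 oral and 3.34 intraperitoneal. Clec4n (Dectin-2) rose by 2.53 and 2.56, or 1.49 intraperitoneal without library 28. The TREM-like receptor gene Treml4 rose by 2.63 and 4.04, or 3.29 intraperitoneal without IL-23 library 61. Its counts were few, 57 in IL-23 and 13 in vehicle libraries oral, and 27 and 2 intraperitoneal. The intraperitoneal value (SE 1.11) thus rests on vehicle counts under the floor of 3. The adaptor genes rose too: Tyrobp, the partner of Trem1 and Trem3, by 1.23 ± 0.41 and 1.66 ± 0.41, and Fcer1g, the partner of Clec4d and Clec4e, by 1.51 ± 0.35 and 1.74 ± 0.35 (SE), both named after their values were seen. Without library 26 the oral call of Tyrobp was lost (0.96, adjusted p = 0.0619, edgeR's quasi-likelihood test), and without library 28 its intraperitoneal value was 0.89. These adaptors are also expressed by macrophages and other leukocytes.

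Among relatives by sequence, 8 of 10 resistin family and Ly6 genes were tested, and 3 rose, 1 fell and 4 did not pass in each route (medians 0.43 and -0.01). The oral count that rose was 2 without IL-23 library 26 or 68 or vehicle library 33 or 51. The call lost was that of Retnla (1.76, or 1.67 without library 26, adjusted p = 0.0535, edgeR's quasi-likelihood test). A second gene was called lower in the intraperitoneal mice without library 28 (Ly6c1, at -0.43) or without IL-23 library 25 (Ly6d, at -0.29). Retnla, Ly6c1 and Ly6d were named after their values were seen. Retn, the resistin gene expressed by mouse adipocytes, fell by 2.46 and by 1.88, opposite to Retnlg. Ly6a rose by 0.73 and 1.13 and Ly6e by 0.64 and 1.01. Of 7 T cell markers, 2 rose, none fell and 5 did not pass in the oral mice, and 5 rose, none fell and 2 did not pass in the intraperitoneal mice, where 2 rose and 5 did not pass without library 28. The oral count was 1 without IL-23 library 24, 26 or 68 or vehicle library 4, 27 or 51, and without library 24 Cd247 was called lower (-1.10). A count of 2 of 7 is near the share of all genes that rose, 29.2% in the oral and 30.8% in the intraperitoneal mice. Their summed level was 77.4 CPM in library 28 and 13.6 to 28.0 CPM in the remaining IL-23 libraries, with 14.7 to 23.2 CPM in vehicle libraries. Of 7 keratinocyte markers, 4 rose, none fell and 3 did not pass in the oral mice, and 5 rose, none fell and 2 did not pass in the intraperitoneal mice, beside the same 29.2% and 30.8% of all genes. The intraperitoneal count was 6 without library 28 or vehicle library 50, and 4 without vehicle library 49, 59 or 67. Without IL-23 library 25 it was 4, with 1 gene, Lor, called lower. Eosinophils share a granulocyte origin with neutrophils, and their summed 7 markers were 1.39 to 4.46 CPM in IL-23 and 0.999 to 4.60 CPM in vehicle libraries. Of these only Ear2 was tested, at 1.45 oral (called, but not without IL-23 library 68, at 1.06) and -0.28 intraperitoneal (not passed). Epx, eosinophil peroxidase, had 0 counts in IL-23 and 2 in vehicle libraries.

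The IL-23 effect was compared between the routes in the same edgeR fit. No gene of the 14671 tested was called for this difference (0%; DESeq2 called 1), 796 had an unadjusted p below 0.05, and none of the 6 genes was among these. The intraperitoneal minus oral difference in log2 fold change was 1.57 for Trem3 (95% interval -0.62 to 3.77, adjusted p = 0.886), 1.27 for Cd177 (-2.06 to 4.60), 1.23 for Clec4e (-0.66 to 3.11), 0.93 for Retnlg (-1.59 to 3.44), 0.71 for Trem1 (-1.07 to 2.49) and 0.36 for Clec4d (-1.08 to 1.81). The intervals are wide, so equal effects are not shown. The vehicle mice of the routes, which enter that difference, were also set side by side, a comparison added after the counts had been seen. The intraperitoneal minus oral log2 difference in vehicle mice was -2.15 for Trem3 (95% interval -4.09 to -0.20, unadjusted p = 0.0323, adjusted p = 0.66), and between -1.79 and -0.72 for Retnlg, Cd177, Trem1, Clec4d and Clec4e. No gene was called there by edgeR either (DESeq2 called 1), with 1087 at an unadjusted p below 0.05. The comparisons share the vehicle libraries and are not independent of each other.

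The genes whose pattern over the 16 libraries was most like the mean pattern of the 6 called genes were found by the mean absolute difference of log2 CPM profiles, each centred on its own mean. They were Hdc (histidine decarboxylase, which makes histamine) at 0.238, Irg1 (which makes itaconate in activated myeloid cells) at 0.239, Ccr1 (a receptor for CC chemokines) at 0.277, Gm5483 at 0.278 and Csf3r (the receptor for G-CSF, also in the list of blood neutrophil receptors) at 0.282. The median over 14665 genes was 1.56. The 6 genes themselves lay between 0.321 (Clec4d) and 0.537 (Cd177) from the mean of the others. Hdc averaged 79.9 ± 52.2 CPM in oral IL-23 and 12.6 ± 4.79 CPM in oral vehicle mice, and 48.9 ± 22.3 CPM in intraperitoneal IL-23 and 7.57 ± 4.12 CPM in intraperitoneal vehicle mice (SD, n = 4 each). These libraries share the IL-23 contrast, and the likeness is a description.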

How the data were processed

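The authors deposited unscaled counts, 1 whole number per gene and library, for 16 libraries. Libraries were made with a stranded total RNA kit, per the labels' protocols. Per the submitters' processing notes, the tools were FastQC, STAR and featureCounts (Subread 1.5.0), on build GRCm38. Strand setting, annotation release and treatment of multi-mapping reads are not given in the sources, so counts of near-identical genes, and of genes with an antisense partner, are uncertain.

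The main test was edgeR 4.0.16 under R 4.3.3. It used TMM scaling, filterByExpr over the 4 groups at a minimum count of 10 (14671 of 26357 genes passed and 5558 had no count), and a quasi-likelihood fit of 4 group means with 12 residual degrees of freedom. All tests were 2-sided. P-values were adjusted by Benjamini-Hochberg over every gene in the fit, with 0.05 as the threshold for a call. The SE was derived from the log2 fold change and the F statistic. CPM is given as mean ± SD, and RPKM uses the union of exons of GENCODE M21 (GRCm38). Gene positions come from the same build. Count ratios carry 95% exact binomial (Clopper-Pearson) intervals, and floors are 3 counts over the group. Both cover counting error only, since the reads carry no molecular identifiers. A level given as a multiple of a floor leaves out the counting error of the counts above it. Replicates differed beyond counting noise in every pair, so none was counted as 1 sample. The procedure was also run on simulated data, with few genes changed, equally up and down, and only in the oral IL-23 group. Most genes were called in the real data, so that run does not test the scaling used here.

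The 10 genes and the 10 lists (99 names) were chosen with earlier results of these data known. Up to 3 genes per list were named, those with the largest absolute fold change averaged over the routes among genes called in both. The 5 most similar genes were also named. Alternatives were RLE, upper-quartile and library-size scaling, no filter, a filter requiring 4 libraries with 1 CPM, limma-voom (limma 3.58.1), DESeq2 1.42.0, fits of the 2 groups compared, and leaving out each library. For the other lists, leaving out each library was added after the values had been seen.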

Additional observations from a re-analysis of the deposited data

Results flagged for a closer look

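Within groups of 4 libraries, 48 sets of values were examined for a library whose gap to its nearest neighbour was, as a share of the group's range, above Dixon's 95% critical value. Chance would flag about 1 in 20 independent groups, and 9 flags were found here. The sets share libraries and counts, such as Clec4d in the sum of the 10 genes, so these flags cannot be compared with that rate. Oral IL-23 library 26 accounts for 4 of them: it stood above the other oral IL-23 libraries at 20.3 CPM of Retnlg, 5.96 CPM of Trem3 and 92.5 CPM of Clec4d, and at 192 CPM for the sum of the 10 genes. Intraperitoneal IL-23 library 28 stood above its group at 46.8% for the share of Clec4e in the Clec4e and Clec4d counts and at 1466 CPM for the summed macrophage and monocyte markers. Oral vehicle library 51 stood apart on both sides, below its group at 0.405 CPM of Trem1 and above it at 426 CPM for the macrophage and monocyte sum. Intraperitoneal IL-23 library 31 had the highest share of Trem3 in the Trem3 and Trem1 counts, 19.7%, a value that rests on 76 counts.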

How the results depend on the processing

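All 286 alternative values of the route effects of Retnlg, Cd177, Trem1, Trem3, Clec4d and Clec4e kept their direction and their call. The number of the 10 genes called ran from 5 to 6 in the oral and from 5 to 7 in the intraperitoneal mice, the lowest in fits of the 2 groups compared, which tested 5 of them. Leaving out 1 library gave 8457 to 9768 genes called in the oral and 8310 to 9092 in the intraperitoneal mice. With DESeq2, 1 gene was called for the difference between routes and 1 for the vehicle route comparison, against 0 with edgeR, and neither is among the 10. Library size without factors moved the median log2 fold change of all genes to -0.257 oral and -0.232 intraperitoneal, and the share of calls that were higher to 31.0% and 31.5%, against 46.2% and 49.9% with TMM.

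The intraperitoneal call of Ly6g was lost with upper-quartile factors (adjusted p = 0.0505), with library size only (adjusted p = 0.0597), with DESeq2 (adjusted p = 0.109), and without IL-23 library 28, 31, 61 or 68 or vehicle library 49, 50 or 59 (adjusted p = 0.0527 to 0.112). In the oral mice Ly6g was called without IL-23 library 14, 24 or 25. Directions reversed, none of them past the threshold, for Elane with limma-voom (0.15, oral) and with 1 library left out for 4 results. The range over the libraries left out was -1.40 (without IL-23 library 24) to 2.50 for the oral effect on Ngp, and -0.91 to 0.17 (without vehicle library 59) for the intraperitoneal effect on Mpo. It was -0.15 (without vehicle library 59) to 0.87 for the vehicle route difference of Mpo, and -0.00299 (without vehicle library 49) to 0.80 for the route difference of Clec4d. The cause was not tested. No paired analysis was possible because the groups share no replicate number. Depth limits Ly6g, Ngp, Mpo and Elane, with 14, 5, 17 and 0 counts in IL-23 libraries and 1, 1, 28 and 5 in vehicle libraries.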
